A study of Mus musculus with 6 samples.

Results

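The 10 genes described here encode the microtubule proteins and neurofilament subunits of neurons: Map1a, Map1b, Map2, Mapt, Tubb3 and Stmn2, and Nefl, Nefm, Nefh and Ina. They were chosen by name: every non-control probe whose array name is one of these symbols or an older one (Mtap1a, Mtap1b, Mtap2 and Nef3). The probes carry 27670 distinct names, counting the array name where no gene was matched. The rule found 21 of 41174 probes, with 1 probe each for Map1b, Tubb3 and Ina, 2 each for Stmn2, Nefl, Nefm and Nefh, 3 each for Map1a and Mapt, and 4 for Map2. The samples are cerebral cortex of male mice, 3 of them labelled knock-out with the genotype Cux2-/- (samples 53, 48 and 54). The 3 others (samples 15, 62 and 16) are titled WT but carry the genotype label Cux2+/-, a conflict the labels do not settle, and they are called controls. The series asked which transcripts differ when Cux2, a homeodomain factor of upper-layer neurons, is altered. The age of the mice, the construction of the allele and whether each sample is 1 animal were not stated in the labels, so a p-value here reflects how these samples vary, which may be technical.

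Microtubules carry transport along axons and dendrites, and proteins bound to their walls or ends set how stable they are. MAP2 is the classic marker protein of dendrites and tau, the product of Mapt, of axons. MAP1A and MAP1B bind along the microtubule, beta-III tubulin (Tubb3) is the tubulin subunit used as a marker of neurons, and stathmin-2 (Stmn2) binds free tubulin and favours disassembly. Neurofilaments are intermediate filaments built from a light, a medium and a heavy subunit (Nefl, Nefm, Nefh) together with alpha-internexin (Ina), and they set the calibre of large axons. Cux2 is known for its part in dendrite branching and spines of upper-layer neurons. Several of the 10 genes are thus better known from axons than from dendrites, and bulk tissue does not separate these compartments.

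The array files name the probes but hold no probe sequences. Of the 10 genes, 5 had an entry in the RefSeq promoter table (build GRCm38.p6), namely Map1a, Map1b, Map2, Tubb3 and Ina, and the upstream sequence of 1 gene of each group is shown for context, that of Map2 and that of Ina. Each is the 250 bases before the annotated start, 5′ to 3′ on the plus strand, with capitals for the GC box (CCGCCC on either strand). Map2 spans chr1:66175079-66175328 and Ina spans chr19:47014431-47014680.
Map2: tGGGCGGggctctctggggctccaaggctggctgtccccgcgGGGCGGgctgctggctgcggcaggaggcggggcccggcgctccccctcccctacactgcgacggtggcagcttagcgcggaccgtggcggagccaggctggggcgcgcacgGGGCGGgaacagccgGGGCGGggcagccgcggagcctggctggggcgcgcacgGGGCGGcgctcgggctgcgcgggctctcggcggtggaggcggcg
Ina: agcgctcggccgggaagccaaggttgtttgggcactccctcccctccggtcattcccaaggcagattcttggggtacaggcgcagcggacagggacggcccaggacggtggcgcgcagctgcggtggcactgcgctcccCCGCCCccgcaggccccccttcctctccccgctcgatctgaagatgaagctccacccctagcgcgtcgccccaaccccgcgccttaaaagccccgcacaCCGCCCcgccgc

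The Map2 window holds 5 GC boxes and the Ina window 2, and the windows of Map1a, Tubb3 and Map1b hold 4, 2 and 1. Among all windows of this length (32851) 32.7% hold at least 1 GC box. The windows are rich in G and C, at 81.2% for Map2 and 70.8% for Ina against a median of 52.4% over all windows. The letters CCAAT, searched on both strands, stood once each in the windows of Map1a and Tubb3 and in 33.8% of all windows, and TATAAA once in that of Map1b and in 12.4% of all windows. No binding was measured in these samples, so these matches describe the sequence only.

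All values below are log2 signals relative to the 75th percentile of the same array, so levels of different probes are not compared with each other, and they are given in the order of controls 15, 62 and 16 and knock-outs 53, 48 and 54. Of the 21 probes, 17 were well above background on all 6 arrays. One Map2 probe (A_52_P1179775) was above it on the 3 control arrays and 1 knock-out array and entered the test through the controls alone. The other 3 probes, another probe of Map2 and a second probe each of Nefm and Stmn2, were above background on 2, 0 and 4 of the 6 arrays and were not tested. The 8 genes of neurons in general, 8 of the upper cortical layers and 9 of the deep ones were all above background on all 6 arrays. So were 7 markers of striatum and 4 of thalamus, so their presence does not tell cortex from neighbouring tissue. The brightest Cux2 probe differed by -0.12 (95% interval -0.36 to 0.12), and its place relative to the altered part of the gene was not stated, so it checks nothing about the labels. The arrays lie on 2 slides. Control 15 and knock-outs 48 and 54 lie on slide 1, and controls 62 and 16 and knock-out 53 on slide 2. Within slide 1 a difference thus has control 15 as its only control, and within slide 2 knock-out 53 as its only knock-out. Probes well above background made up 58.5% to 72.7% of an array.

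No member passed the test between knock-outs and controls: 0 of 18 tested probes had an adjusted p under 0.05 in limma, against 0.129% of all 25507 tested probes. Adjusted p over the 18 probes ran from 0.397 to 0.994. At an unadjusted p under 0.05 stood 3 of the 17 probes above background on all 6 arrays, against 7.95% of all tested probes, besides the Map2 probe that entered through the controls alone. These were the brightest probes of Nefh, Map2 and Nefl, so 3 of the 10 genes, all higher in the knock-outs. Of all 17124 tested genes, 8.27% stood at that p in either direction and 3.89% at that p and higher. The 10 genes were 6 higher and 4 lower, with a median difference of 0.04 beside -0.01 over all genes. The intervals of the 10 brightest probes reached between 0.17 and 0.29 to either side of the difference on the log2 scale. As each is centred on its own difference and not on 0, their lowest end was -0.34, for Mapt, and their highest was 0.63, for Map2. In 2 of the 10 genes, Nefl and Nefh, every knock-out lay above every control, a separation that 6.38% of all tested genes showed, and in 0 of the 10 every knock-out lay below, against 7.21% of all genes.

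**Figure D1:**
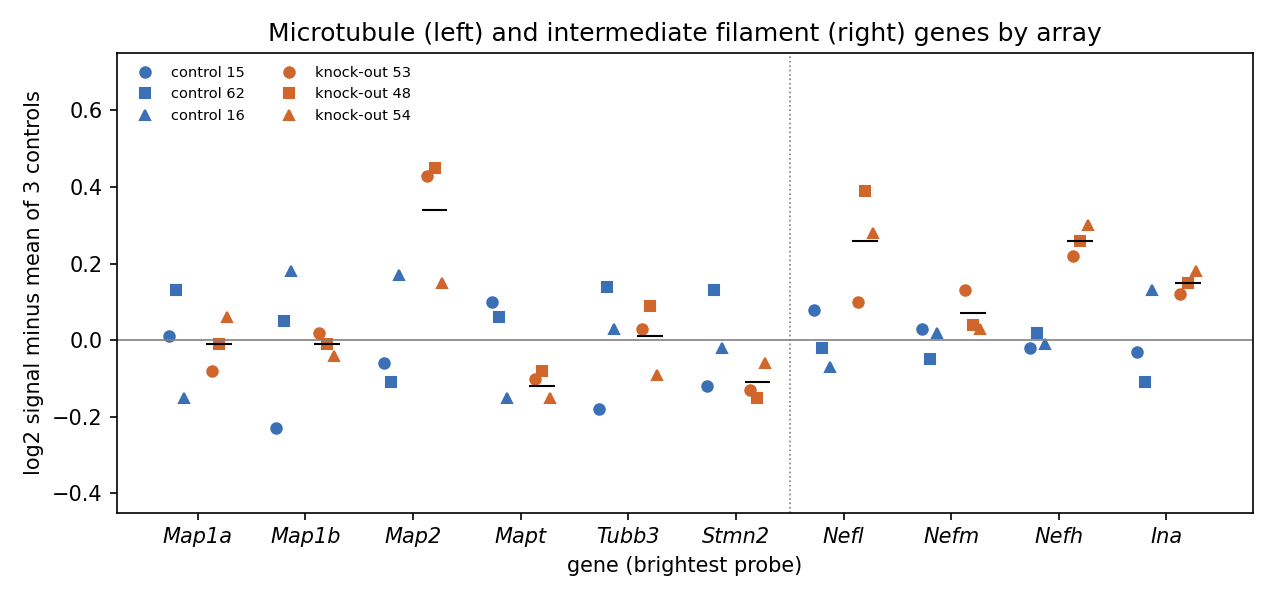
Log2 signal of the brightest probe of each gene minus the mean of its 3 control arrays, 1 point per array (blue controls, orange knock-outs, shape by sample), with a black bar at the fitted knock-out difference. The knock-out points of Nefl and Nefh lie above all of their control points, whereas those of Map1a, Map1b and Tubb3 lie among them.

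The neurofilament genes stood higher in the knock-outs as a group of values, although none passed the test. All 6 tested probes of Nefl, Nefm, Nefh and Ina had a higher mean in the knock-outs. By the brightest probe the 4 genes differed by 0.07 to 0.26, with a median of 0.20 beside -0.01 over all 17124 genes, of which 48.2% were higher. Over all genes the 75th percentile of the difference was 0.08 and the 95th was 0.31, so all 4 lay inside the range of most genes. Averaged over the 4 genes, the deviation from each gene's mean was -0.07, -0.13 and -0.07 on the controls and 0.05, 0.12 and 0.11 on the knock-outs. On this average the controls and knock-outs did not overlap. Such a separation was not particular to these genes among the cytoskeleton lists described below. The averages of stathmins and CRMPs (-0.01 to 0.10 on the controls, -0.08 to -0.02 on the knock-outs) separated with the knock-outs lower. So did those of severing enzymes and kinases (0 to 0.03 against -0.02 to -0.01), whereas the remaining cytoskeleton lists overlapped. Fewer neurons of one kind and less RNA per neuron cannot be told apart in bulk tissue, and the same holds for more.

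Nefh, the heavy subunit, whose long phosphorylated tail projects from the filament, had the lowest p of the members. Its brighter probe (A_51_P300657) read 1.59, 1.63 and 1.60 on the controls and 1.83, 1.87 and 1.91 on the knock-outs. The groups did not overlap, and the arrays of each group lay close together, with an SD of 0.02 in the controls and 0.04 in the knock-outs. The difference was 0.26 (95% interval 0.10 to 0.43), a 1.20-fold higher signal, with adjusted p = 0.397 in limma (n = 3 arrays per group). It was 0.30 within slide 1 and 0.22 within slide 2. The dimmer Nefh probe read -0.87, -0.52 and -0.57 on the controls and -0.50, -0.60 and -0.60 on the knock-outs. Its groups overlapped and its difference was 0.09 (95% interval -0.18 to 0.36), with control 15 alone standing apart at the low end.

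Nefl, the light subunit on which the filament assembles, was read by 2 bright probes. The brighter one (A_51_P168646) read 4.44, 4.34 and 4.29 on the controls and 4.46, 4.75 and 4.64 on the knock-outs. Its groups did not overlap, but knock-out 53 lay only just above control 15. The difference was 0.26 (95% interval 0.02 to 0.50), with adjusted p = 0.596 in limma. The second Nefl probe read 4.01, 4.20 and 4.20 on the controls and 4.10, 4.84 and 4.61 on the knock-outs. Here knock-outs 48 and 54 were high and knock-out 53 lay among the controls, so the groups overlapped, and the difference was 0.38 (95% interval -0.07 to 0.83). Both high arrays lie on slide 1. Within slide 1 the second probe differed by 0.71 and within slide 2 by -0.10, whereas the brighter probe differed by 0.25 and 0.14. With slide as a block the brighter probe stood at 0.20 and the second at 0.31, with adjusted p of 0.670 and 0.806 in limma.

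Nefm, the medium subunit, and Ina, alpha-internexin, differed less. The tested Nefm probe is printed on 10 spots of every array, which gives a direct measure of the error of a single spot. Its 10 spots had an SD of 0.0257 to 0.0318 within an array, and its array means read 3.28, 3.20 and 3.27 on the controls and 3.38, 3.29 and 3.28 on the knock-outs. The SD between arrays was 0.05 in the controls and 0.06 in the knock-outs, and the groups touched at 3.28. The Nefm difference was 0.07 (95% interval -0.11 to 0.25, adjusted p = 0.892 in limma), and turned to -0.021 with normexp background correction. Its second probe was above background on no array and gave no value.

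Ina read 1.57, 1.49 and 1.73 on the controls and 1.72, 1.75 and 1.78 on the knock-outs. The knock-outs lay close together (SD 0.03) and control 16 reached into their range. The difference was 0.15 (95% interval -0.06 to 0.36, adjusted p = 0.747 in limma), 0.19 within slide 1 and 0.11 within slide 2.

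**Figure D2:**
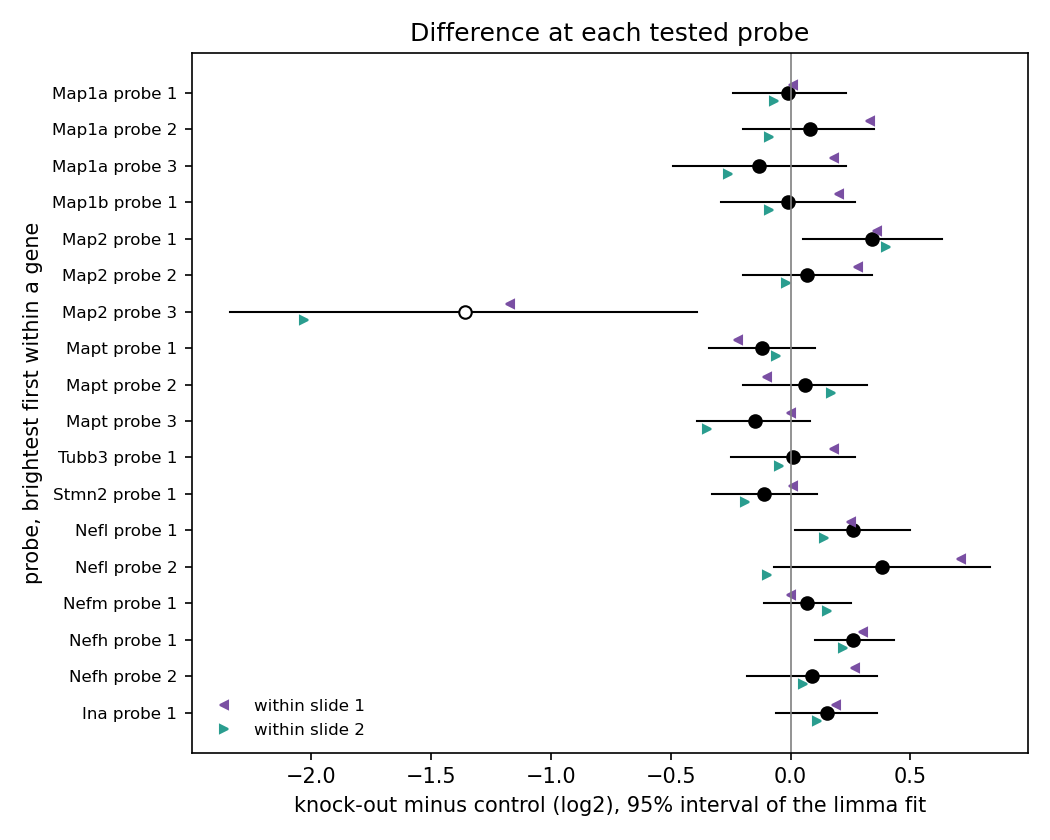
Knock-out minus control difference (log2) of each of the 18 tested probes with its 95% interval (black), and the differences within slide 1 (purple) and slide 2 (green). The open circle is the Map2 probe that was above background on only 1 knock-out array, and the 6 neurofilament probes at the bottom all lie to the right of 0.

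The microtubule genes showed no common direction. By the brightest probe, Map2 and Tubb3 were higher and Map1a, Map1b, Mapt and Stmn2 lower, although Tubb3 turned lower with normexp background correction and the other 4 turned higher without scaling between arrays, where the median of all genes was itself 0.17. The 6 genes had a median of -0.01, the same as over all genes. Their mean deviation ran from -0.09 to 0.06 on the control arrays and from -0.03 to 0.04 on the knock-out arrays, which overlap. Map2 was the one member of this group at an unadjusted p under 0.05.

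Map2, whose protein spaces and stabilises dendritic microtubules, gave different answers by probe. The brightest probe (A_52_P22763), annotated to transcript variant 1, read 3.91, 3.86 and 4.14 on the controls and 4.40, 4.42 and 4.12 on the knock-outs. Knock-outs 53 and 48 were high, on different slides, while knock-out 54 lay just below control 16. The difference was 0.34 (95% interval 0.05 to 0.63), a 1.27-fold higher signal, with adjusted p = 0.564 in limma, and it was 0.36 within slide 1 and 0.40 within slide 2. The second probe (A_51_P180754), annotated to an mRNA with the complete coding sequence, read -1.34, -1.01 and -1.01 on the controls and -1.03, -1.11 and -1.01 on the knock-outs. Its difference of 0.07 (95% interval -0.20 to 0.34) came with control 15 alone at the low end.

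The third Map2 probe lay near background and went the other way. It read -5.14, -5.65 and -5.17 on the controls and -7.44, -6.83 and -5.77 on the knock-outs, of which 1 array was well above background. The fitted difference was -1.36 (95% interval -2.34 to -0.39, adjusted p = 0.481 in limma). Because this probe passed the filter only through the group in which it was bright, its separation supports nothing. Per the array's annotation, this probe was made for a cDNA clone whose product is unclassifiable, and whether it reads the Map2 transcript was not tested. Averaging the 3 tested probes would turn the sign of Map2 to -0.318.

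Mapt was read by 3 bright probes that did not share a direction. The brightest read 5.99, 5.95 and 5.74 on the controls and 5.79, 5.81 and 5.74 on the knock-outs, a difference of -0.12 (95% interval -0.34 to 0.10, adjusted p = 0.837 in limma). A further probe of the same annotated transcript, variant 1, differed by 0.06 (95% interval -0.20 to 0.32). The probe of transcript variant 2 differed by -0.15 (95% interval -0.39 to 0.08). The groups overlapped at all 3 probes, and the difference between the transcript variants was not tested.

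Map1a and Map1b, relatives made as precursors that are cut into a heavy and a light chain, had the smallest differences of the 10 genes together with Tubb3. Map1a is the form of mature neurons and Map1b that of growing axons. The brightest Map1a probe read 1.28, 1.40 and 1.12 on the controls and 1.19, 1.26 and 1.33 on the knock-outs, with a difference of -0.01 (95% interval -0.24 to 0.23). Its other probes differed by 0.08 and -0.13, both with intervals across 0. Map1b read -0.87, -0.59 and -0.46 on the controls and -0.62, -0.65 and -0.68 on the knock-outs, with a difference of -0.01 (95% interval -0.29 to 0.27). The knock-outs lay inside the range of the controls.

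Tubb3 is printed on 10 spots as well, with an SD of 0.0359 to 0.0519 between spots of an array. Its array means read 4.05, 4.37 and 4.26 on the controls and 4.26, 4.32 and 4.14 on the knock-outs. The SD between control arrays was 0.17, wider than that between spots. The difference was 0.01 (95% interval -0.25 to 0.27), which corresponds to 0.841-fold to 1.21-fold. Stmn2 read 3.11, 3.36 and 3.21 on the controls and 3.1, 3.08 and 3.17 on the knock-outs, with a difference of -0.11 (95% interval -0.33 to 0.11, adjusted p = 0.838 in limma). Control 62 was the high array.

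Of the 5 genes with more than 1 tested probe, all tested probes shared a sign in 2, Nefl and Nefh. Map2 was left out of this count only by A_52_P1179775, the probe that entered the test through the controls alone. The Map2 probes above background on all 6 arrays were both higher, at 0.34 and 0.07, so they shared a sign as well. Control 15 was the lowest of the 6 arrays at 8 of the 18 tested probes, among them Map1b, Tubb3 and the dimmer probes of Map2 and Nefh, and no other array was lowest at more than 3. It shares slide 1 with 2 knock-outs, and the median difference over the 10 genes was 0.19 within slide 1, with 9 genes higher, and 0.03 within slide 2, with 5 higher. Without control 15 the median over the 10 genes was 0.04. What sets control 15 apart was not tested.

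The rest of the neuronal cytoskeleton was read through 7 lists of 88 genes, of which 87 were tested, and 0 passed in limma in either direction. At an unadjusted p under 0.05 stood 3 higher and 3 lower, or 6 of 87, beside 8.27% of all genes. The median difference over the 87 genes was -0.02. Of 12 tubulins 8 were higher, with a median of 0.04, and the genes of lowest p were Tuba8 at 0.40 (adjusted p = 0.520) and Tubg2 at -0.14 (adjusted p = 0.755). Of 21 other microtubule-associated proteins 10 were higher, with Dcx, the doublecortin of young neurons, at 0.23 (adjusted p = 0.772) and Map9 at -0.19 (adjusted p = 0.795). Of 16 motor subunits 9 were higher, with the kinesin Kif21a at 0.28 (adjusted p = 0.537) and the kinesin heavy chain Kif5b at -0.11 (adjusted p = 0.788), by limma as for all values of these lists.

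Stathmins and CRMPs, the tubulin-binding proteins of growth cones, were lower in 7 of 8 with a median of -0.09. Their genes of lowest p were Dpysl3 at -0.22 (adjusted p = 0.585) and Dpysl5 at -0.21 (adjusted p = 0.824). Severing enzymes and kinases were lower in 11 of 14, with a median of -0.09. Cdk5r2 stood against that trend: it encodes p39, an activator of Cdk5, the kinase that phosphorylates tau and the neurofilament tails. It read -0.63, -0.49 and -0.71 on the controls and 0.28, -0.25 and -0.03 on the knock-outs. Its groups did not overlap, and its difference of 0.61 (95% interval 0.26 to 0.96) had an adjusted p = 0.349 in limma, the lowest of the 87. The microtubule-affinity kinase Mark4 stood at -0.21 (adjusted p = 0.576).

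Other intermediate filaments and linkers did not share the direction of the neurofilament genes: 3 of 10 were higher, with a median of -0.05. The genes of lowest p were Gfap, the filament of astrocytes, at -0.58 (95% interval -1.05 to -0.11, adjusted p = 0.525 in limma) and Nes, the filament of progenitors, at 0.14 (adjusted p = 0.895). The difference between these filaments and the neurofilament genes was not tested. Spectrins and ankyrins had a median of -0.01, with Sptbn4 at 0.10 (adjusted p = 0.886).

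**Figure D3:**
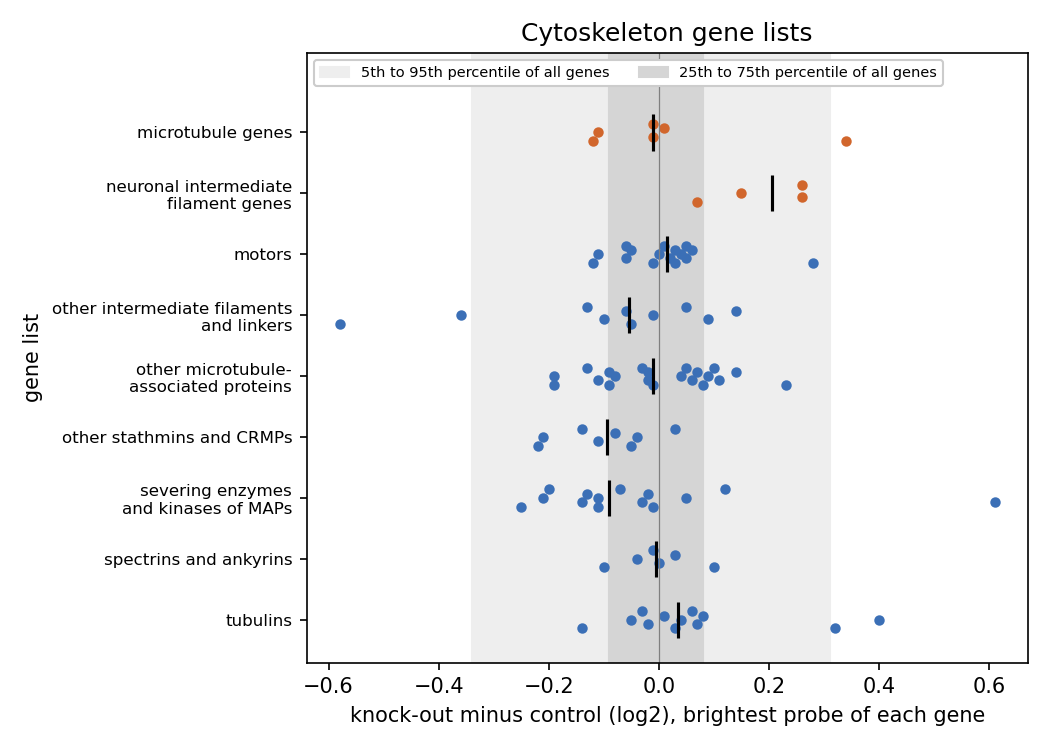
Knock-out minus control difference (log2) of every tested gene, 1 point each, in the member groups (orange) and the 7 other cytoskeleton lists (blue), with the median of each as a black bar and the spread of all genes in grey. The 4 neuronal intermediate filament genes lie at 0.07 to 0.26, whereas the other medians lie between -0.09 and 0.04.

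Markers of cell types were read beside these values. Genes of neurons in general were 5 of 8 higher with a median of 0.01, and their mean deviation ran from -0.03 to 0.07 on the controls and from -0.04 to 0.01 on the knock-outs. Deep-layer markers, which include those of the large projection neurons rich in neurofilament, were lower in 8 of 9 (mean deviation 0.04 to 0.09 on the controls and -0.14 to 0.01 on the knock-outs). Upper-layer markers were lower in 6 of 8 and interneuron markers in 7 of 8, with ranges that overlapped for both (-0.01 to 0.07 against -0.11 to 0.01, and -0.08 to 0.16 against -0.09 to 0.04). Microglia markers were lower in 9 of 9 (0.11 to 0.40 against -0.30 to -0.16), astrocyte markers in 7 of 8 (0.08 to 0.13 against -0.16 to -0.05) and striatal markers in 7 of 7 (-0.26 to 0.52 against -0.36 to -0.16). The striatal average was 0.52 and 0.5 on controls 15 and 62, whereas control 16, at -0.26, lay among the knock-outs. Oligodendrocyte markers were 4 of 8 higher (-0.17 to 0.27 against -0.14 to 0.09), thalamic markers 2 of 4 (-0.05 to 0.14 against -0.12 to 0.05) and vessel markers 5 of 6 (-0.24 to 0.17 against -0.01 to 0.16). All markers of these 10 lists were above background on all 6 arrays, and limma called 0 of these 75 genes. Before adjustment 15 of the 75 had a p under 0.05, 1 higher and 14 lower, beside 8.27% of all tested genes in either direction and 3.89% of them in the higher one. The part of these shifts in the higher neurofilament values was not tested.

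The genes nearest in pattern to each member group were found by the root mean square difference of their centred log2 values over the 6 arrays, among 14093 named genes. For the microtubule genes these included Usp32 (0.0120) and Hnrnpu (0.0124), with differences of 0.03 and 0.00, which restate the group's average since they were picked for nearness to it. For the neurofilament genes they were Tmem175 (0.0224), Zfp747 (0.0229) and Phf12 (0.0249), with differences of 0.18, 0.20 and 0.18 and adjusted p of 0.626, 0.563 and 0.631 in limma. These too were picked for nearness, so their differences restate the neurofilament average. The median distance over all candidates was 0.129 from the microtubule average and 0.157 from the neurofilament average. The 4 neurofilament genes, which make up their own average, lay at 0.0516 for Nefh to 0.0860 for Nefl. The microtubule genes lay at 0.0619 for Tubb3 to 0.118 for Mapt, with Map2 apart at 0.204, beyond the median candidate.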

How the data were processed

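RNA of 6 male mouse cortex samples was examined on 1-colour Agilent arrays, 1 array per sample. Per the file headers, Agilent Feature Extraction 9.1.3.1 read the spots, and its deposited processed signal (an intensity) had background subtracted and spatial trends removed array by array. The authors also deposited log2 values. Each of their columns has a median of 6.76 over the 41174 shared probes and ranks as the same array's processed signal. The sorted values of the 6 columns differ by at most 0.000703, as quantile normalization leaves them, and the method and centring are unstated. The only coordinates given are those of the RefSeq promoter windows. The number of arrays limits the precision.

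Control spots (1639 of 45018) and 120 spot values with an outlier flag were left out, and spots of one probe were averaged. No member spot was saturated. Processed signals were put on the log2 scale and set relative to the 75th percentile of their own array. Of 41174 probes, 25507 were tested, those exceeding background throughout either group's 3 arrays, a filter that uses the group labels. Differences come from lmFit and eBayes of limma 3.58.1 (R 4.3.3) over all tested probes, with Benjamini-Hochberg adjustment at 0.05. The procedure was tested on simulated data. Gene lists were matched by current symbol through a RefSeq gene table (GRCm38.p6). A probe that matched no gene (8455 of 41174) kept its array name, so counts over all genes include such names. The brightest probe over all arrays stands for a gene.

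The members, the lists and the tests were chosen with earlier results of these data known. All members were named, with, for every other cytoskeleton list, the 2 genes having the smallest p, and 3 genes nearest in pattern to each member group. Some genes that this rule names are not reported here. Alternatives changed the scaling, the background correction (normexp, offset 50), the filter, the variance model, array weights, the slide block, the probe summary, the source of the values and the arrays used. Figures were drawn with matplotlib 3.10.9.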

Additional observations from a re-analysis of the deposited data

How the results depend on the processing

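No paired analysis was possible because the sample titles share no replicate number between groups. In every alternative fit over all probes, each with limma, 0 member probes and 0 of the other cytoskeleton genes passed. Nefl, Nefh and Ina stayed higher in all 21 alternatives run for each gene (0.14 to 0.43, 0.18 to 0.44 and 0.09 to 0.32), and the adjusted p of Nefh ran from 0.254 to 0.988. Without scaling between arrays the median of all genes was 0.17, the median over the 10 genes was 0.21, and Mapt (0.059), Stmn2 (0.064), Map1a (0.167) and Map1b (0.164) turned higher. The median over the 10 genes was 0.00 with the mean of tested probes, where Map2 turned to -0.318. Both values include the third Map2 probe, which passed the filter only through the controls, so they do not bear on the direction of Map2. The median was 0.19 within slide 1, where Stmn2 (0.015), Map1a (0.012) and Map1b (0.202) turned higher. Within slide 2 Tubb3 turned to -0.054. Map1a turned to 0.013 with quantile normalization, 0.001 with median centring and 0.011 with the deposited values. With normexp Tubb3 turned to -0.060, Nefm to -0.021 and Map1b to 0.063. Map1b was 0.055 with the slide block and Tubb3 -0.010 with array weights. Leaving out single arrays gave a median of 0.03 to 0.08 and moved Tubb3 between -0.079 and 0.083, Map1a between -0.081 and 0.060 and Map1b between -0.126 and 0.079.

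Over all probes 33 passed (13 higher, 20 lower). This count was 0 with normexp (149 at an unadjusted p under 0.05), 3 with probes above background on at least 1 array, 2 without a filter and 15 with the slide block. Without single arrays it ran from 2 (control 16) to 60 (knock-out 53), with 7 without control 15 and 12 without knock-out 54. The cause was not tested. Signal over background limits the third Map2 probe and the 3 untested probes.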
